A study of Mus musculus with 237 samples.

Results

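The genes followed here encode the small high-mobility-group proteins of chromatin: Hmgb1, Hmgb2 and Hmgb3, Hmgn1, Hmgn2 and Hmgn3, and Hmga1. They are 7 of the 36186 gene entries in a table of RPKM (reads per length of the gene and per sequencing depth) for single cells of the embryonic mouse kidney. They were picked by symbol because Hmgb2 and Hmgb3 are low in E18.5 Pax2 mutant cells, so that contrast is given as a description and supports nothing.

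Hmgb proteins carry DNA-bending HMG boxes and are among the most abundant non-histone proteins of the nucleus. Hmgn proteins bind the nucleosome core and loosen chromatin, and Hmga1 binds the minor groove of AT-rich DNA through its AT hooks. In the developing kidney, the cap mesenchyme holds the self-renewing nephron progenitors, the interstitium is the surrounding stroma, and Pax2 is a transcription factor that nephron progenitors need. Mki67 encodes Ki-67, a protein of cycling cells, and Top2a encodes the DNA topoisomerase of G2 and mitosis.

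Cells were enriched by FACS from kidneys of a mixed strain and captured on a Fluidigm C1 instrument. The groups were 44 cells labelled Pax2 mutant cap mesenchyme at E18.5 (pool 4 in the titles), 71 wild-type interstitial cells at E18.5 (22 in pool 2 and 49 in pool 3), 74 wild-type cap mesenchyme and cap-derived cells at E18.5 (pool 2), 29 Pax2 mutant cap mesenchyme cells at E13.5 and 18 wild-type cap cells at E13.5 (both pool 3). The titles of the interstitial cells name FoxD1_GCE, a name used for a Cre line driven from the stromal gene Foxd1. The labels give no Pax2 allele and name no embryo, so each group counts as 1 sample: the SD is between cells, the intervals are exact 95% Clopper-Pearson intervals for counting error alone, and no comparison below carries a test. At E18.5 the mutant and cap cells were also in different pools, and the date in the titles differed between all 5 groups, so group, date and animal cannot be told apart in any comparison below. A single further cell had conflicting labels and was left out of the groups.

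The groups differed in more than genotype and age. A gene is called found in a cell at 1 RPKM or more. Cells yielded a median of 3643 genes in the E18.5 mutant, 5178 in E18.5 interstitium and 5210.5 in E18.5 cap, and 4560 in the E13.5 mutant and 5566 in E13.5 cap. Pax2 was at 0 in all 44 E18.5 mutant cells but reached 1 RPKM in 17 of 29 E13.5 mutant cells, against 56 of 74 cells in E18.5 cap and 15 of 18 cells in E13.5 cap. The summed RPKM of the 5 stromal markers had a median of 689 in E18.5 mutant cells, 487 in interstitium and 7.91 in E18.5 cap. All 5 stromal markers were found in at least 10% of the cells in each of these groups, so that count does not set them apart. The 5 nephron progenitor markers summed to a median RPKM of 0.435 in E18.5 mutant cells, 25.05 in interstitium and 296 in E18.5 cap. Cited1 was at 0 in every E18.5 mutant cell. At least 1 of these 5 markers was found in 17 of 44 E18.5 mutant cells, against 70 of 74 E18.5 cap cells. The markers thus go against the cap mesenchyme label of the E18.5 mutant cells, which are called by their genotype label here. Xist without Y-linked transcripts was found in 42 of 44 E18.5 mutant cells and 67 of 74 E18.5 cap cells, while 70 of 71 interstitial cells had Y-linked transcripts without Xist. At E13.5, 27 of 29 mutant cells had Xist without Y-linked transcripts, while 17 of 18 cap cells had Y-linked transcripts without Xist. Sex therefore cannot be told apart from genotype at E13.5, from age in cap, or from group between interstitium and the other E18.5 cells, and Hmgb3 lies on the X chromosome. The part that gene number, cell type markers or sex play in the differences below was not tested.

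The promoters of the 3 Hmgb genes are shown because the choice of genes rests on Hmgb2 and Hmgb3, and Hmgb1 is their relative with the same HMG-box fold. RefSeq (GRCm38.p6) holds the window from 250 bases before to 50 bases after the start for 6 of the 7 genes, all but Hmgn3. The lines give the 250 bases before the start on the gene's own strand, 5′ to 3′: Hmgb1 at chr5:149053058-149053307 (minus strand), Hmgb2 at chr8:57511593-57511842 (plus strand) and Hmgb3 at chrX:71555667-71555916 (plus strand). Capitals mark CCAAT, the box bound by NF-Y, and TTTGAA, a core of the cell-cycle homology region, searched on both strands, so that TTCAAA is TTTGAA on the other strand.
Hmgb1: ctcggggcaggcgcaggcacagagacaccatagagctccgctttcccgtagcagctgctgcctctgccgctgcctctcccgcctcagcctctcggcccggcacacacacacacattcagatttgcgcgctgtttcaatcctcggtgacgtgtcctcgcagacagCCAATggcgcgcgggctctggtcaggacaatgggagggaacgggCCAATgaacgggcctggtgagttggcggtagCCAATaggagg
Hmgb2: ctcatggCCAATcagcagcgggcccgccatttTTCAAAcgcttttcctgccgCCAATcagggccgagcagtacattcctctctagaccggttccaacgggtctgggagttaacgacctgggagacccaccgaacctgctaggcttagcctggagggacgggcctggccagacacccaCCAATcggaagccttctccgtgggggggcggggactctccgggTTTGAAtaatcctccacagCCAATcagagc
Hmgb3: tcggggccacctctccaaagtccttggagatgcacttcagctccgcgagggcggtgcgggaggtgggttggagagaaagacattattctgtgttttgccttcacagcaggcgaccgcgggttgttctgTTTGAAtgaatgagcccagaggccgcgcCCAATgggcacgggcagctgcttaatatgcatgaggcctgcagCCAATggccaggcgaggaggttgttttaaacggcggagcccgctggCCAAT
In the 300-base windows, CCAAT occurred 4 times for Hmgb2, 3 times for Hmgb3, 3 times at this start of Hmgb1, 2 times for Hmgn1 and once for Hmgn2. TTTGAA occurred 2 times for Hmgb2, once for Hmgb3 and in no other window of these genes. Hmga1 (both annotated starts) and the second annotated start of Hmgb1 held neither motif, and the E2F-like TTTNNCGC was in none of the windows. Of 32851 mouse promoters of the same length, 37.4% held CCAAT, 17.9% held TTTGAA and 5.17% held TTTNNCGC. At least 3 CCAAT together with TTTGAA, as for Hmgb2 and Hmgb3, were found in 0.545%. That combination describes what the windows of these 2 genes hold, so nothing is read from its low share. These matches are letters in a window and were not tested as binding sites.

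Hmgb1, the most abundant Hmgb transcript and, outside the cell, an alarm signal, was found in every cell of every group. It ranged from 69.6 to 1634 RPKM with a median of 484 in the 44 E18.5 mutant cells, against 58.9 to 2848 with a median of 1237 in interstitium and 92.8 to 3555 with a median of 1198 in E18.5 cap. At E13.5 it ranged from 30.7 to 4258 with a median of 616 in mutant cells and from 513 to 2714 with a median of 1468 in cap. All ranges overlapped, but only 1 of the 44 E18.5 mutant cells lay above the E18.5 cap median. On the log2(RPKM + 1) scale used for all means here, Hmgb1 averaged 8.67 ± 0.98 in E18.5 mutant cells, 10.09 ± 0.98 in interstitium and 9.91 ± 1.14 in E18.5 cap, and 9.12 ± 1.98 in E13.5 mutant cells and 10.46 ± 0.63 in E13.5 cap (SD between cells). The E18.5 interstitium and cap means lay 0.19 apart, well within the SD between cells.

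Hmgb2, the family member best known from dividing cells, had the lowest mean difference of the 7 between E18.5 mutant cells and both other E18.5 groups. In the E18.5 mutant cells it ran from 0 to 492 RPKM with a median of 0.157 and reached 1 RPKM in 15 of 44 cells (34.1%, interval 20.5 to 49.9). It ran from 0 to 547 with a median of 149 in interstitium (70 of 71 cells at 1 RPKM) and from 0 to 1537 with a median of 202 in E18.5 cap (71 of 74 cells, 95.9%, interval 88.6 to 99.2). At E13.5 it ran from 0 to 516 with a median of 35.3 in mutant cells (24 of 29 cells) and from 77.8 to 821 with a median of 416 in cap (18 of 18 cells, with an interval of 81.5 to 100%). The mean was 1.67 ± 2.49 in E18.5 mutant cells, 6.44 ± 2.23 in interstitium, 6.51 ± 2.82 in E18.5 cap, 4.77 ± 3.19 in E13.5 mutant cells and 8.36 ± 0.91 in E13.5 cap. The ranges overlapped, but 1 of the 44 E18.5 mutant cells lay above the E18.5 cap median, while 72 of the 74 cap cells lay above the mutant median.

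Hmgb3, the X-linked member known from stem and progenitor cells of the blood, was at 0 in 29 of the 44 E18.5 mutant cells. It ran from 0 to 622 RPKM there with a median of 0 and reached 1 RPKM in 10 of 44 cells (22.7%, interval 11.5 to 37.8). The median was 104 RPKM in interstitium (range 0 to 562, 64 of 71 cells at 1 RPKM) and 116 in E18.5 cap (range 0 to 1646, 63 of 74 cells, 85.1%, interval 74.96 to 92.3). At E13.5 the median was 61.4 in mutant cells (range 0 to 756, 23 of 29 cells) and 197 in cap (range 36.1 to 441, 18 of 18 cells). Mutant and cap cells thus overlapped at both ages, and 4 of the 44 E18.5 mutant cells lay above the E18.5 cap median. The means were 1.40 ± 2.74 in E18.5 mutant cells, 5.92 ± 2.57 in interstitium, 5.63 ± 3.05 in E18.5 cap, 5.29 ± 3.34 in E13.5 mutant cells and 7.54 ± 0.93 in E13.5 cap.

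The Hmgn genes, whose proteins compete with linker histone on nucleosomes, were spread differently. Hmgn2 was found in 43 of 44 E18.5 mutant cells and in every cell of the other groups. Its median was 412 RPKM in E18.5 mutant cells (range 0.853 to 4170), 1060 in interstitium (52.9 to 2959) and 1225 in E18.5 cap (7.33 to 5882), and 1118 in E13.5 mutant cells (13.03 to 2716) and 1523 in E13.5 cap (673 to 2526). Hmgn2 was above Hmgb1 in the same cell in 23 of 44 E18.5 mutant cells, 27 of 71 interstitial cells, 38 of 74 E18.5 cap cells, 17 of 29 E13.5 mutant cells and 10 of 18 E13.5 cap cells. Hmgb1 and Hmgn2 were thus of like abundance per length, and neither led throughout in any group.

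Hmgn1 had a median of 150 RPKM in E18.5 mutant cells (range 0 to 577), 261 in interstitium (11.6 to 687) and 249 in E18.5 cap (0 to 919), and 246 in E13.5 mutant cells (2.33 to 2652) and 427 in E13.5 cap (0.964 to 1014). It reached 1 RPKM in 39 of 44, 71 of 71, 65 of 74, 29 of 29 and 17 of 18 cells in that order, and all ranges overlapped. Its means were 6.22 ± 2.68 in E18.5 mutant cells and 6.79 ± 2.84 in E18.5 cap, a gap far smaller than the SD between cells.

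Hmgn3, a member enriched in endocrine and neural tissue, did not follow the other members with age in cap cells. Its median was 0.543 RPKM in E18.5 mutant cells (range 0 to 401, 21 of 44 cells at 1 RPKM), 26.4 in interstitium (0 to 376, 53 of 71) and 47.03 in E18.5 cap (0 to 2082, 67 of 74), and 6.11 in E13.5 mutant cells (0 to 619, 21 of 29) and 6.70 in E13.5 cap (0 to 76.7, 12 of 18). The mean was 5.05 ± 2.29 in E18.5 cap and 2.66 ± 2.28 in E13.5 cap, so that it was the only one of the 7 genes with a higher mean in the later cap cells. Of 74 E18.5 cap cells, 62 lay above the E13.5 cap median, against 2 of 18 E13.5 cap cells above the E18.5 cap median.

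Hmga1, an AT-hook protein of embryonic and proliferating cells, was the rarest of the 7 in E18.5 mutant cells. It was at 0 in 41 of 44 of them and reached 1 RPKM in 2, at 7.07 and 42.1 RPKM (4.55%, interval 0.555 to 15.5). Its median was 8.503 RPKM in interstitium (range 0 to 231, 45 of 71 cells at 1 RPKM), 7.36 in E18.5 cap (0 to 254, 48 of 74), 0.193 in E13.5 mutant cells (0 to 166, 13 of 29) and 88.3 in E13.5 cap (0 to 240, 15 of 18). Means were 0.20 ± 0.93 in E18.5 mutant cells, 3.10 ± 2.72 in interstitium, 3.03 ± 2.56 in E18.5 cap, 1.87 ± 2.27 in E13.5 mutant cells and 5.65 ± 2.62 in E13.5 cap. The 2 E18.5 mutant cells with Hmga1 had Mki67 and Top2a at 0.

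**Figure D1:**
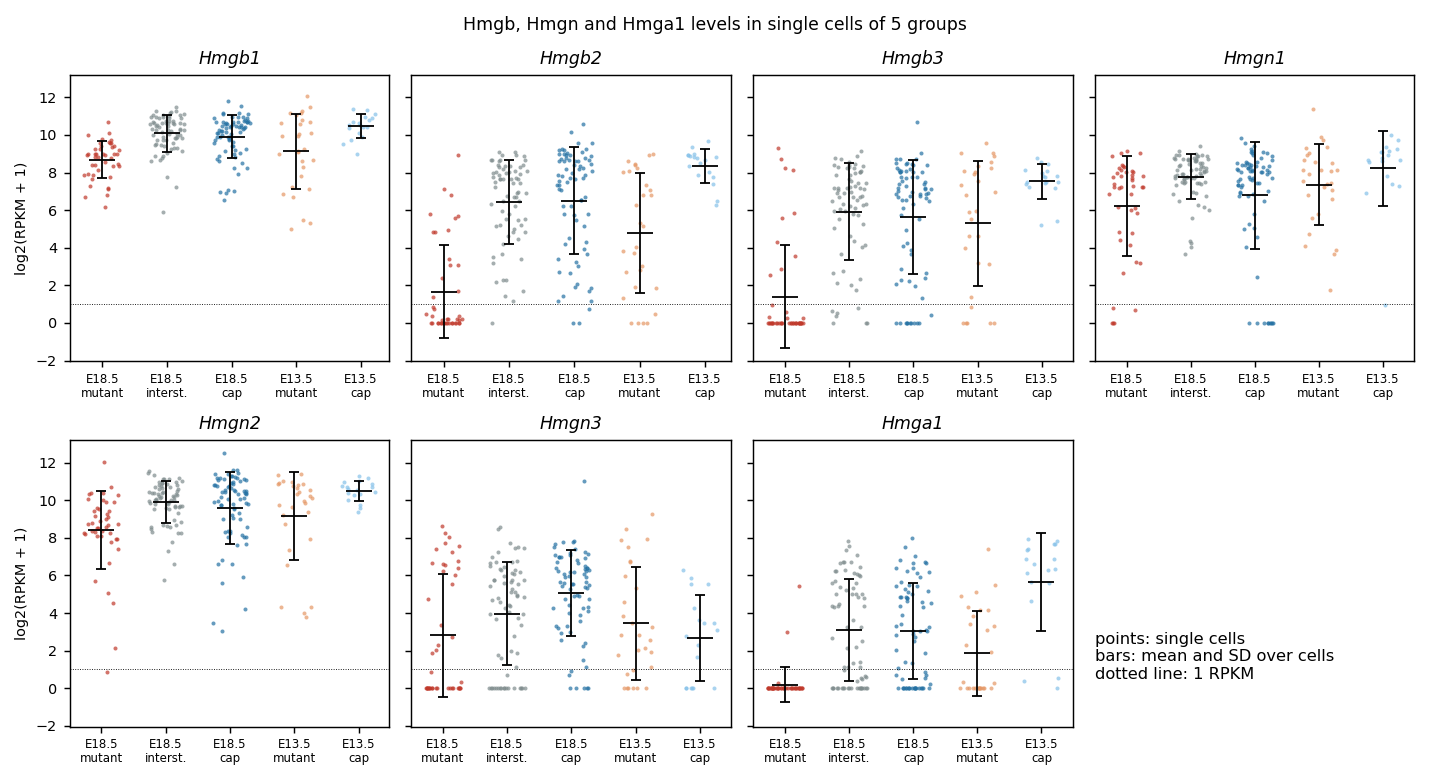
Each point is 1 cell, plotted as log2(RPKM + 1) for the 7 genes, with bars at the mean and SD over cells and a dotted line at 1 RPKM. Hmgb1 and Hmgn2 stay far above the line in nearly all cells, while Hmgb3 and Hmga1 are at 0 in 29 and 41 of the 44 E18.5 mutant cells and Hmgb2 reaches 1 RPKM in 15 of them.

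Some copies of these genes are annotated elsewhere in the genome, and the way the authors counted reads that fit several copies is not given in the sources used here. Of 143 other entries described as high-mobility-group pseudogenes or related sequences, 139 were at 0 in every cell. Those above 0 included Hmgb1-rs17, with a median of 7.79 RPKM in E18.5 mutant cells and 24.5 in E18.5 cap, the Hmgb2 pseudogene Gm5176 (0.721 and 2.31) and Hmga2-ps1, which stayed below 1 RPKM in every cell. The levels of Hmgb1 and Hmgb2 are uncertain to the extent that reads were split with these entries. Hmgb1-rs17 and Gm5176 each had a lower mean in E18.5 mutant cells than in E18.5 cap, as did Hmgb1 and Hmgb2.

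The difference of group means places these levels side by side. In E18.5 mutant minus E18.5 cap it was -1.23 for Hmgb1, -4.84 for Hmgb2, -4.24 for Hmgb3, -0.57 for Hmgn1, -1.20 for Hmgn2, -2.23 for Hmgn3 and -2.83 for Hmga1. So 6 of the 7 genes were lower by at least 1 log2 unit and none was higher, where 23.2% of 11100 genes measured in either group were lower by that much and 4.51% were higher. The choice of the genes used this contrast, so nothing is read from that count. The median difference was -2.23 over the 7 genes and -0.40 over all genes. As a log2 ratio of group mean RPKM, Hmgb2 stood at -3.44, Hmgb3 at -1.99, Hmgn3 at -0.71 and Hmga1 at -3.79. The rest lay between -1.28 and -0.52, so the size of the gap depends on how cells are averaged. Between cells holding 3000 to 5000 genes, 33 mutant and 26 cap cells, the difference was -2.98 for Hmgb2, -2.70 for Hmgb3, -1.97 for Hmgn3 and -2.24 for Hmga1. It was -0.45 for Hmgb1 and -0.32 for Hmgn2 in the same cells, and Hmgn1 turned to 1.55.

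Against interstitium, which resembles the E18.5 mutant cells in stromal markers, all 7 genes were lower by at least 1 log2 unit in E18.5 mutant cells; 23.4% of 10903 genes were lower by that much and 2.05% higher. The mutant cells are the ones the genes were chosen on, so this comparison is not independent of the choice. The difference was -4.77 for Hmgb2, -4.52 for Hmgb3 and -2.90 for Hmga1, and lay between -1.57 and -1.15 for Hmgb1 and the Hmgn genes. As a ratio of group mean RPKM, Hmgn3 stood at 0.088 on the log2 scale, the other way, so its direction depends on how cells are averaged.

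Interstitium and cap at E18.5 were close for most of the 7. Interstitium minus cap gave 0.19 for Hmgb1, -0.07 for Hmgb2, 0.29 for Hmgb3, 0.99 for Hmgn1, 0.28 for Hmgn2 and 0.06 for Hmga1, all smaller than the SD between cells. Hmgn3 alone was lower by at least 1 log2 unit, at -1.08, which makes 1 of 7 against 2.7% of 11219 genes lower and 5.94% higher. The 22 interstitial cells of pool 2, the pool of the E18.5 cap cells, had mean levels of 9.97 for Hmgb1, 6.25 for Hmgb2, 5.78 for Hmgb3 and 3.64 for Hmgn3. The 49 interstitial cells of pool 3 had 10.15, 6.52, 5.98 and 4.11 for these genes, so the pools differed by less than the SD between cells. Hmga1 averaged 2.17 ± 2.64 in the pool 2 cells (median 0.875 RPKM) and 3.51 ± 2.67 in the pool 3 cells (median 19.6 RPKM). Pool 2 interstitium minus cap was -0.86 for Hmga1, against 0.06 with both pools, and 1.26 for Hmgn1, -1.40 for Hmgn3 and between -0.26 and 0.25 for the rest. That is 1 of 7 lower and 1 higher by at least 1 log2 unit, where 5.34% of genes were lower and 7.24% higher.

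At E13.5, mutant minus cap gave -3.78 for Hmga1, -3.59 for Hmgb2, -2.25 for Hmgb3, -1.34 for Hmgb1, -1.32 for Hmgn2 and -0.89 for Hmgn1, and 0.79 for Hmgn3. This made 5 of 7 lower by at least 1 log2 unit, where 27.7% of 11449 genes were lower and 1.43% higher. Both groups came from pool 3, with different dates in the titles and different sex transcripts, and their values were not used to choose the genes. For Hmga1, 1 of 29 mutant cells lay above the cap median, and for Hmgb2, 2 of 29. By contrast 10 of 29 mutant cells lay above the cap median for each of Hmgb1, Hmgb3 and Hmgn2. The E13.5 cap cells carried Mki67 at 1 RPKM or more in 17 of 18 cells, against 12 of 29 in the mutant, and the stromal marker sum had a median of 183 RPKM in mutant cells and 97.5 in cap. The nephron progenitor marker sum had a median of 10.96 RPKM in mutant cells and 233 in cap. Of these 5 markers, 4 were lower in mutant cells by at least 1 log2 unit, so the groups also differed in cell type markers. Without the 8 mutant cells and 1 cap cell that held 20000 RPKM or more of an ATP synthase pseudogene entry, Hmga1 stood at -2.95 and Hmgb2 at -2.82. The other members then lay between -0.68 and 0.99, so 2 of 7 were lower by at least 1 log2 unit, where 19.3% of genes were lower and 3.03% higher. What markers, Mki67, sex and these cells account for was not tested.

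With age, E18.5 cap minus E13.5 cap was -2.62 for Hmga1, -1.91 for Hmgb3, -1.85 for Hmgb2, -1.45 for Hmgn1, -0.89 for Hmgn2 and -0.56 for Hmgb1, against 2.39 for Hmgn3. That is 4 of 7 lower and 1 higher by at least 1 log2 unit, where 14.5% of 11423 genes were lower and 2.53% higher. These groups share the E13.5 cap cells with the comparison before, and they differ in pool and in sex transcripts. Without 20 E18.5 cap cells and 1 E13.5 cap cell at 20000 RPKM or more of the ATP synthase pseudogene, Hmgb2 stood at -1.96, Hmga1 at -1.86, Hmgb3 at -1.14 and Hmgn3 at 2.76, while Hmgn1 was at -0.22. In E18.5 mutant minus E13.5 mutant, Hmgb3 was at -3.89, Hmgb2 at -3.10, Hmga1 at -1.67 and Hmgn1 at -1.14. The other members lay between -0.77 and -0.45, so that 4 of 7 were lower by at least 1 log2 unit, where 11.5% of 10872 genes were lower and 6.69% higher. The genes were chosen on the E18.5 mutant cells, so nothing is read from these values or this count. All 5 stromal markers were higher by at least 1 log2 unit in E18.5 than in E13.5 mutant cells, with a median difference of 3.54. What age and cell type markers each account for was not tested.

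**Figure D2:**
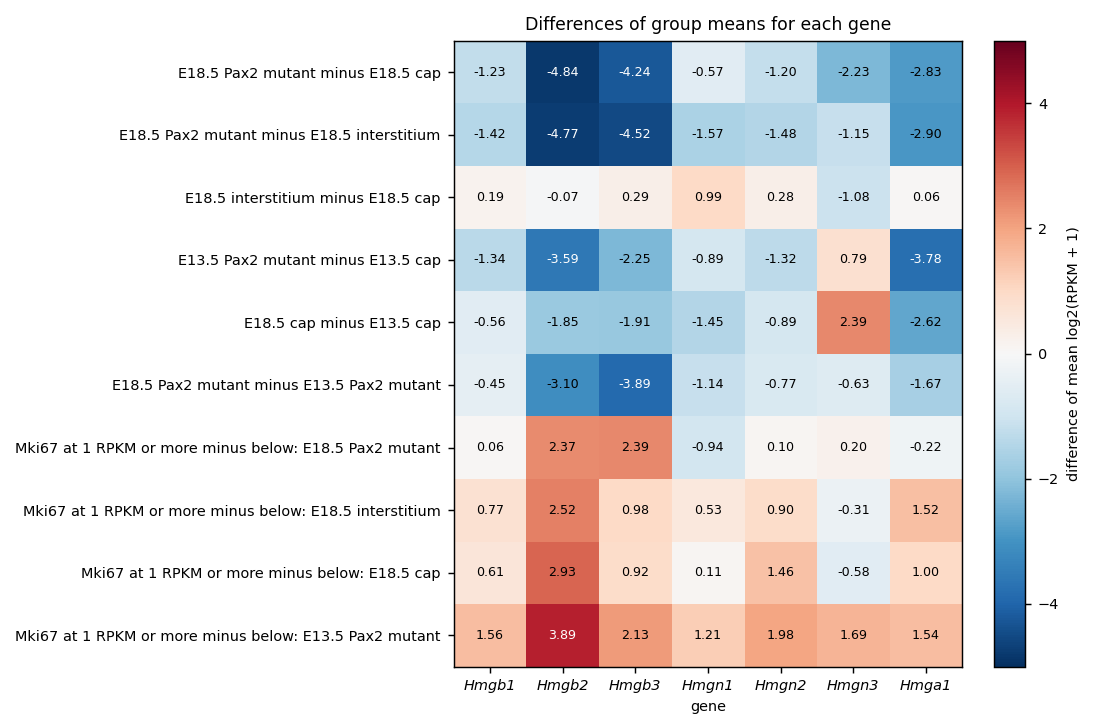
Each cell of the grid is a difference of group means on the log2(RPKM + 1) scale, with the gene across and the comparison down; blue is below 0 and red above. Hmgb2 runs from -4.84 to 3.89, while Hmgn3 is above 0 at 2.39 in E18.5 cap minus E13.5 cap.

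Cells were next divided by Mki67 at 1 RPKM. Cells below 1 RPKM are called cells without Mki67. Of the 236 cells in the groups, 131 were at or above 1 RPKM, 50 lay between 0 and 1 and 55 were at 0. The nearest cells on either side of the line had 1.02 and 0.767 RPKM. Mki67 was at 1 RPKM or more in 5 of 44 E18.5 mutant cells, 49 of 71 interstitial cells, 48 of 74 E18.5 cap cells, 12 of 29 E13.5 mutant cells and 17 of 18 E13.5 cap cells. Top2a was still at 1 RPKM or more in 9 interstitial, 16 E18.5 cap and 8 E13.5 mutant cells below the Mki67 line, and in no such E18.5 mutant or E13.5 cap cell, so the line does not remove every cell with cell-cycle transcripts.

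Hmgb2 had the largest difference of the 7 between cells with and without Mki67 in interstitium, E18.5 cap and E13.5 mutant cells. In E18.5 cap it averaged 7.54 ± 2.35 in the 48 cells with Mki67 and 4.61 ± 2.66 in the 26 without, a difference of 2.93, and 42 of the 48 lay above the median of the cells without. In interstitium it averaged 7.22 ± 1.82 in 49 cells with Mki67 and 4.70 ± 2.13 in 22 without, a difference of 2.52. In E13.5 mutant cells the averages were 7.05 ± 2.61 in 12 cells with Mki67 and 3.16 ± 2.54 in 17 without, a difference of 3.89. All 3 differences were as large as or larger than the SD between cells. The ranges nevertheless overlapped, and 25 of 26 E18.5 cap cells without Mki67 still had Hmgb2 at 1 RPKM or more.

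The other members differed less with Mki67 in these 3 groups. Hmgb3 differed by 0.98 in interstitium, 0.92 in E18.5 cap and 2.13 in E13.5 mutant cells, in each case less than the SD between cells. Hmgn2 differed by 0.90, 1.46 and 1.98 in these groups, Hmga1 by 1.52, 1.005 and 1.54, and Hmgb1 by 0.77, 0.61 and 1.56. Hmgn1 differed by 0.53, 0.11 and 1.21. Hmgn3 was lower in cells with Mki67 in interstitium (-0.31) and E18.5 cap (-0.58) and higher in E13.5 mutant cells (1.69). Counted at 1 log2 unit, 2 of 7 were higher with Mki67 in interstitium, where 13.3% of all genes were higher and 1.15% lower. In E18.5 cap 3 of 7 were higher, where 7.88% of genes were higher and 1.58% lower. In E13.5 mutant cells 7 of 7 were higher, where 26.9% of genes were higher and 4.14% lower. When the E13.5 mutant cells were divided by Top2a instead, Hmgb3 stood at -0.66, Hmgn2 at -0.31 and Hmga1 at -0.036, and when the E18.5 cap cells were held to 3000 to 5000 genes, Hmga1 stood at -0.33.

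Only 5 E18.5 mutant cells had Mki67 at 1 RPKM, and they were not alike. The cell with the most, 219 RPKM, had 492 RPKM of Hmgb2, 281 of Hmgb3, 1634 of Hmgb1, 4170 of Hmgn2 and 745 of Top2a. A second, with 20.3 RPKM of Mki67 and 689 of Top2a, had 141 RPKM of Hmgb2 and 145 of Hmgb1 but no Hmgb3, Hmgn1, Hmgn3 or Hmga1, and it had the fewest genes of its group, 2284. The other 3 had 2.44 to 5.18 RPKM of Mki67, at most 0.0670 of Top2a, and 0.139, 0.174 and 4.21 RPKM of Hmgb2. The highest levels of Hmgb2 in the group were those of the 2 cells with Top2a; the third highest, 109 RPKM, was in a cell with Mki67 and Top2a at 0. Hmgb3 did not rank this way: its 3 highest values, 622, 414 and 304 RPKM, were in cells with Mki67 at 0. With Mki67 minus without was 2.37 for Hmgb2 and 2.39 for Hmgb3, and 2 of the 6 genes measured in enough cells, which leave out Hmga1, were higher by at least 1 log2 unit, where 17.7% of all genes were higher and 10.5% lower.

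**Figure D3:**
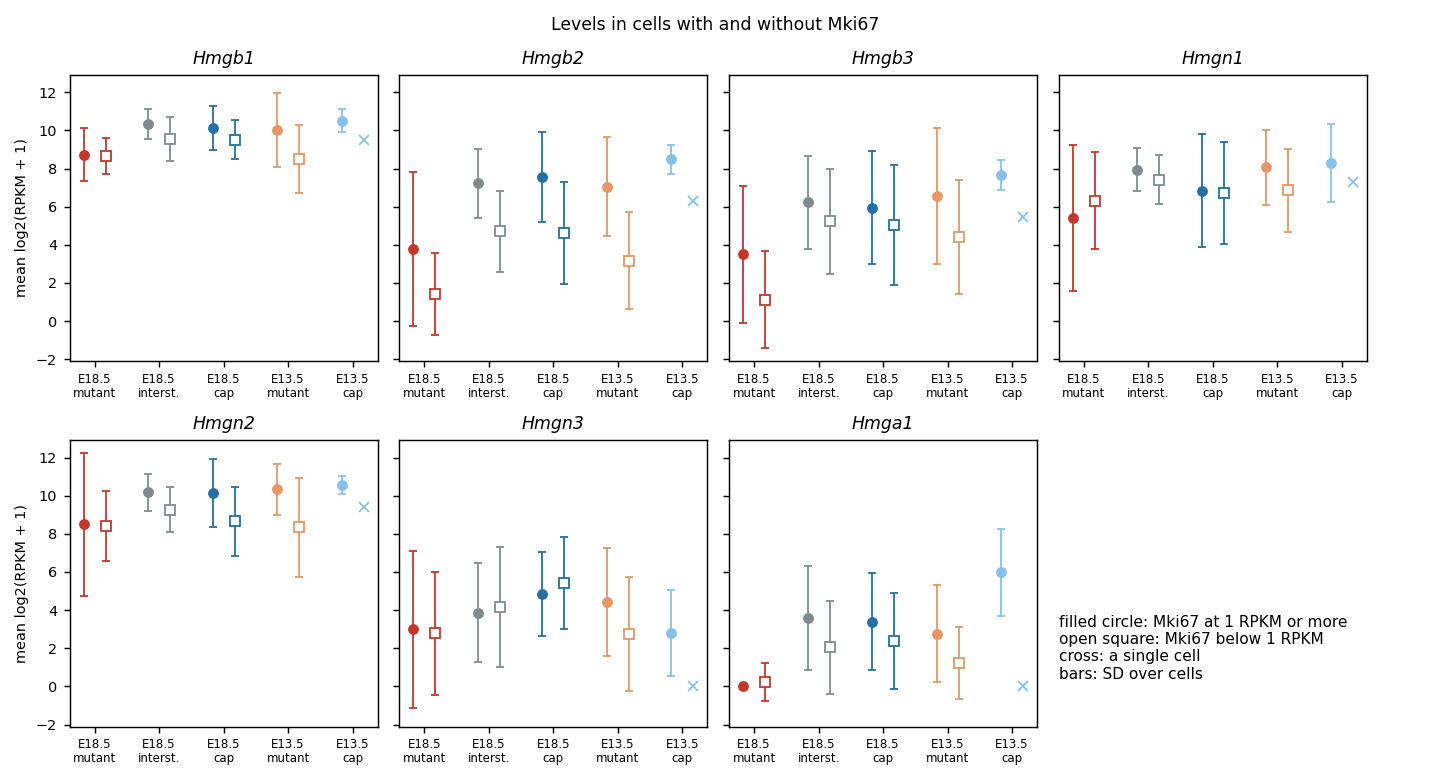
Means of log2(RPKM + 1) with SD over cells are drawn for cells with Mki67 at 1 RPKM or more (filled circles) and below (open squares) in each group; a cross is the single E13.5 cap cell below the line. Hmgb2 shows a step between circle and square of 3.89 in E13.5 mutant cells and 2.93 in E18.5 cap, and both its symbols are lowest in E18.5 mutant cells.

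Among cells below 1 RPKM of Mki67, Hmgb2 and Hmgb3 had lower means in E18.5 mutant than in E18.5 cap cells. These mutant cells are among those the genes were chosen on, so nothing is read from these values or counts, nor from those against interstitium and E13.5 mutant cells that follow. In 39 mutant and 26 E18.5 cap cells, Hmgb2 averaged 1.40 ± 2.15 in the mutant and 4.61 ± 2.66 in cap, a difference of -3.21 against -4.84 in all cells. Hmgb3 averaged 1.13 ± 2.55 in the mutant and 5.04 ± 3.17 in cap, a difference of -3.91 against -4.24. Hmgb3 reached 1 RPKM in 7 of 39 mutant cells and 20 of 26 cap cells, and Hmgb2 in 12 of 39 and 25 of 26. Hmgn3 was at -2.63, Hmga1 at -2.16, Hmgb1 at -0.85, Hmgn1 at -0.40 and Hmgn2 at -0.26. This left 4 of 7 lower by at least 1 log2 unit, where 19.6% of 10974 genes were lower and 5.08% higher. Among the 36 mutant and 9 cap cells below 1 RPKM of each of Mki67, Top2a, Ccnb1 and Rrm2, the difference was -1.75 for Hmgb2 and -4.03 for Hmgb3.

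The same cells against interstitium gave -3.30 for Hmgb2, -4.12 for Hmgb3 and -1.82 for Hmga1, with 5 of 7 lower by at least 1 log2 unit where 16.8% of 10573 genes were lower and 3.12% higher. Interstitium minus cap below the Mki67 line was 0.09 for Hmgb2 and 0.21 for Hmgb3, and Hmgn3 alone was lower by at least 1 log2 unit, at -1.25 (1 of 7, where 8.54% of genes were lower and 7.39% higher). E18.5 mutant minus E13.5 mutant below the line was -1.76 for Hmgb2, -3.28 for Hmgb3 and -1.004 for Hmga1, and between -0.53 and 0.19 for the rest, so 3 of 7 were lower, where 8.29% of genes were lower and 10.9% higher. Only 1 E13.5 cap cell was below the line, with 77.8 RPKM of Hmgb2, 42.3 of Hmgb3, 732 of Hmgb1 and no Hmga1 or Hmgn3, so no comparison with E13.5 cap was possible there.

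Within single cells the make-up of Hmgb transcripts also differed. Hmgb1 made up 91.3% ± 17.5 of the summed Hmgb RPKM in E18.5 mutant cells, 80.9% ± 9.76 in interstitium, 77.3% ± 15.1 in E18.5 cap, 79.8% ± 12.6 in E13.5 mutant cells and 71.4% ± 8.70 in E13.5 cap (mean and SD over cells). The share of Hmgb2 was 3.54% in E18.5 mutant cells, 10.4% in interstitium, 13.98% in E18.5 cap, 9.13% in E13.5 mutant cells and 17.5% in E13.5 cap. Because these are shares of a sum within the cell, they do not depend on how each cell was scaled, though low transcripts are lost more often where fewer genes are found. The log2 ratio of Hmgb2 + 1 to Hmgb1 + 1 averaged -7.00 ± 2.63 in E18.5 mutant cells, -3.39 ± 2.36 in E18.5 cap and -2.10 ± 0.63 in E13.5 cap. Below the Mki67 line it was -7.26 ± 2.36 in E18.5 mutant cells and -4.90 ± 2.47 in E18.5 cap. The genes were chosen on low Hmgb2 and Hmgb3 in E18.5 mutant cells, so nothing is read from the shares and ratios of those cells.

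**Figure D4:**
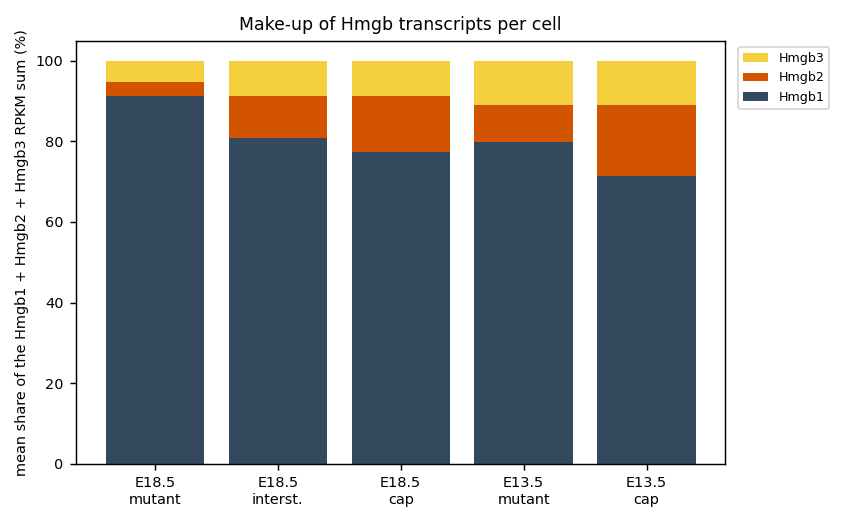
Stacked bars give the mean share (%) of Hmgb1, Hmgb2 and Hmgb3 in the summed Hmgb RPKM of each cell, averaged over the cells of a group. Hmgb2 takes 3.54% in E18.5 mutant cells and 17.5% in E13.5 cap.

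Hmgb2 and Hmgb3 were both below 1 RPKM in 22 of the 44 E18.5 mutant cells, while 3 had both at 1 RPKM, 12 had Hmgb2 alone and 7 had Hmgb3 alone. Both were present in 63 of 71 interstitial cells, 61 of 74 E18.5 cap cells, 20 of 29 E13.5 mutant cells and 18 of 18 E13.5 cap cells. The median number of the 7 genes found per cell was 4 in E18.5 mutant cells (2 to 6), 6 in interstitium (4 to 7), 7 in E18.5 cap (3 to 7), 6 in E13.5 mutant cells (3 to 7) and 7 in E13.5 cap (5 to 7). No E18.5 mutant cell held all 7 together, while 38 of 74 E18.5 cap cells did. The genes were chosen on the E18.5 mutant cells, so nothing is read from these counts. Fewer genes of any kind were found in E18.5 mutant cells, a median of 3643 against 5210.5 in E18.5 cap. The part this plays was not tested. Across cells, Hmgb2 and Hmgb3 had a Pearson correlation of 0.19 over 44 E18.5 mutant cells, 0.18 over 71 interstitial cells and 0.42 over 74 E18.5 cap cells, in values that share each cell's depth. Hmgb1 and the number of genes found correlated at 0.36 in E18.5 mutant cells and 0.45 in E18.5 cap.

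**Figure D5:**
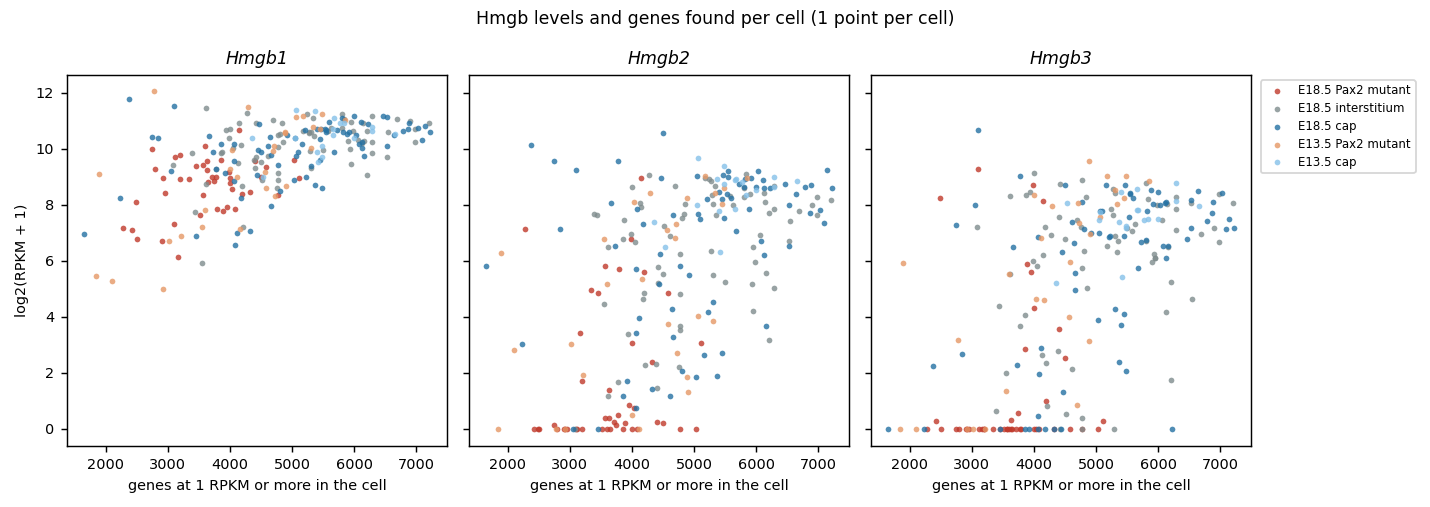
Each point is a cell, with the number of genes found in it across and log2(RPKM + 1) of Hmgb1, Hmgb2 or Hmgb3 up; colours are the 5 groups. The 44 E18.5 mutant cells lie between 2284 and 5109 genes, with Hmgb2 at 0 in 18 of them and Hmgb3 at 0 in 29. The part that gene number plays was not tested.

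The genes whose levels ran closest to each member were ranked over the 74 E18.5 cap cells among 4378 genes found in at least 50% of them. For Hmgb2 they were Cdk1, the kinase that drives mitotic entry (Pearson r 0.76 in cap and 0.62 in the 71 interstitial cells), the histone genes Hist1h2ao (0.75 and 0.47), Hist1h2ap (0.75 and 0.47) and Hist1h2ak (0.72 and 0.46), and Top2a (0.73 and 0.63). These histone genes are near-identical copies whose reads may be split. For Hmgn2 they were H2afz (0.78 and 0.48), Gm12657 (0.74 and 0.42), Cbx3 (0.72 and 0.15), Dynll1 (0.71 and 0.43) and H2afv (0.71 and 0.45). Of these, H2afz and H2afv encode H2A.Z histone variants and Cbx3 a heterochromatin protein. Hmgb1 ran closest to its own related entry Hmgb1-rs17 (0.76 and 0.81), then Tomm6 (0.66 and 0.30), Tsc22d1 (0.64 and 0.06), Gm3226 (0.63 and 0.61) and H3f3a (0.61 and 0.38).

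For the other members, as for most genes named above, r was lower in interstitium than in cap. The genes were ranked by r in cap, so the choice itself favours a lower r in interstitium, and nothing is read from the drop. Hmgn1 was nearest to Atp5e (0.79 and 0.32), Eno1, Gnb1, Ndufa4 (0.77 and -0.14) and Atp5k. As rank (Spearman) correlations in cap, these 5 were lower, from 0.35 for Gnb1 to 0.53 for Atp5k. Hmgn1 was at 0 in 9 of 74 E18.5 cap cells. Hmgb3 was nearest to Psmb6 (0.66 and 0.35), Cct2, Tsc22d1, Bccip and Hn1, and Hmga1 to Snrpd1 (0.59 and 0.44), Psmd14, Psmc5, A430005L14Rik and Dynlt1f. Hmgn3 had no gene above 0.48, its nearest being Ctdspl (0.48 and -0.03), Zfp292, Copb1, Ssr2 and 5430416N02Rik. The correlations share each cell's depth: the median r over all ranked genes was 0.26 for Hmgn1 and Hmgn2 and 0.05 for Hmgn3.

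Other genes of chromatin and of the cell cycle give the surroundings. Of 15 measured other HMG and HMG-box genes, 9 were lower by at least 1 log2 unit in E18.5 mutant than in E18.5 cap cells and none was higher, where 23.2% of all genes were lower and 4.51% higher. The counts in E18.5 mutant minus E18.5 cap use the contrast the 7 genes were chosen on, and nothing is read from them. The lowest were Hmga2, an AT-hook gene of embryonic cells (-4.42), and Ssrp1, the HMG-box subunit of the histone chaperone FACT (-2.56), and Hmgxb3 stood at 0.16. Hmga2 averaged 0.35 in E18.5 mutant cells, 2.28 in interstitium and 4.77 in E18.5 cap, and unlike Hmga1 it was lower in interstitium than in cap. Of 23 linker histone and histone chaperone genes, which share the nucleosome with Hmgn and Hmgb proteins, 15 were lower and none higher, from Anp32e (-3.03) and Anp32b (-3.01) to H1fx (-0.44) and Hist1h1d (-0.46). Of 6 genes for receptors of extracellular Hmgb1, only Cxcr4 was measured in enough cells, at -2.32.

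All 12 S phase genes and all 12 G2 and M phase genes were lower by at least 1 log2 unit in E18.5 mutant than in E18.5 cap cells. Their median differences were -2.92 and -2.72, where 23.2% of all genes were lower by that much and 4.51% higher. Nothing is read from counts in this contrast, and the lists were chosen with earlier results of these data known. Of 12 housekeeping genes, 6 were lower and 2 higher, with a median of -0.83; Hprt was at -2.63 and Tbp at -1.70, against 1.41 for Actb and 1.37 for B2m. Between E18.5 interstitium and cap, none of the 12 G2 and M phase genes and 1 of the 12 S phase genes, lower in interstitium, differed by that much, where 2.7% of all genes were lower and 5.94% higher. In cells below the Mki67 line, 11 of 12 genes of S phase and 5 of 10 measured ones of G2 and mitosis stood lower by at least 1 log2 unit in E18.5 mutant than in E18.5 cap cells, where 19.6% of all genes were lower and 5.08% higher.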

How the data were processed

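RNA-seq was done on single cells captured on a Fluidigm C1. The authors deposited RPKM values per gene and cell; per the submitters' processing notes TopHat and mm10 were used, and versions, counting rule and strand are not given in the sources used here. Depth is unknown, because low values did not fall on whole-read steps, and no 2 cells were identical (highest correlation 0.776). Groups came from the labels; 236 of 237 cells were used. Values were analysed as log2(RPKM + 1), which shrinks differences between low values. For genes at 0 in many cells, a difference of such means can be larger or smaller than the ratio of mean RPKM. A gene counted as found at 1 RPKM, as measured in a comparison when found in 10% of the cells of either group, and as lower or higher at 1 log2 unit. Named genes are the 7 members, Mki67, Top2a, the 2 genes at each end of the difference between E18.5 mutant and cap in each list, and the 5 genes most correlated with each member, except items not reported here; the individual cells described were chosen after their values were seen. The members and lists were chosen with earlier results of these data known. Known shifts added to log2 values of part of the E18.5 cap cells were recovered, which checks the arithmetic of the mean differences alone. Python 3.11.15, numpy 2.4.6, pandas 2.3.3, scipy 1.17.1 and matplotlib 3.10.9 were used. Alternatives were other pseudocounts, scalings, averages, cell subsets and dividing lines. The shares of all genes lower or higher were also recomputed with another cutoff for a measured gene. Of 28 such shares, 22 moved and 6 were counted as unchanged. The printed shares therefore depend on the 10% cutoff and are no fixed yardstick. Endothelial, immune, ureteric and erythroid markers had a median sum of 0 RPKM in every group. A protein comparison was not made, since protein sequences were not used here.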

Additional observations from a re-analysis of the deposited data

Results flagged for a closer look

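The cell left out of the groups, whose source name says E13.5 cap mesenchyme and whose cell type says interstitial, had 664 RPKM of Hmgb3, above the highest of the 18 E13.5 cap cells (441 RPKM). Its other levels lay inside the E13.5 cap range: 1950 RPKM of Hmgb1, 369 of Hmgb2, 289 of Hmgn1, 1989 of Hmgn2, 36.8 of Hmgn3 and 2.21 of Hmga1.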

How the results depend on the processing

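Of 117 medians over the 7 genes recomputed under other settings, 108 moved by less than the smaller of the 2 groups' SD between cells of each cell's mean over the 7 genes, and 9 by more. E18.5 mutant minus E18.5 cap was -3.60 with a pseudocount of 0.1. E18.5 cap minus E13.5 cap was -0.41 as a ratio of mean RPKM and -0.36 without cells at 20000 RPKM or more of an ATP synthase pseudogene. The Mki67 division gave -0.53 for E18.5 cap cells of 3000 to 5000 genes (13 against 13) and 2.11 with Mki67 above 0 (69 against 5), and 0.10 for E13.5 mutant cells divided by Top2a. Below the Mki67 line, E18.5 mutant minus cap was -3.94 and -0.87 with pseudocounts of 0.1 and 10, and interstitium minus cap was 1.26 at Mki67 of 0 (7 against 5 cells). Of 819 values of single genes, 59 changed sign, of which 5 had been at least 1 log2 unit: Hmgn3 in E18.5 mutant minus interstitium (0.088 as a ratio of means), Hmga1 in the E18.5 cap division (-0.33 in cells of 3000 to 5000 genes), and Hmgb3 (-0.66), Hmgn2 (-0.31) and Hmga1 (-0.036) in E13.5 mutant cells divided by Top2a. The causes were not tested. Over all settings, the number of the 7 genes lower by at least 1 log2 unit ran from 4 to 7 in E18.5 mutant minus cap and minus interstitium, 2 to 5 in E13.5 mutant minus cap (2 without the pseudogene-rich cells), 1 to 4 in E18.5 minus E13.5 cap, 2 to 6 in E18.5 minus E13.5 mutant, and 3 to 5, 2 to 6 and 1 to 5 below the Mki67 line in E18.5 mutant minus cap, minus interstitium and minus E13.5 mutant. The number higher with Mki67 ran from 1 to 4 in interstitium, 1 to 6 in E18.5 cap and 1 to 7 in E13.5 mutant cells. In cells of 3000 to 5000 genes, the median of all genes in E18.5 mutant minus cap was -0.059, against -0.40 in all cells, with 10.5% of genes lower and 9.17% higher; median-ratio scaling gave -0.28. Leaving out single cells is not leaving out replicates, so it was not done; with 2 E13.5 cap cells of 3000 to 5000 genes, that alternative was not possible there. No paired analysis was possible because each cell is 1 GEO sample, cell numbers do not pair cells across groups and no test was made.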
